A study of Homo sapiens with 6 samples.

Results

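Enzymes of the early sterol ring steps make squalene, close it into lanosterol and strip methyl groups from the ring on the way to zymosterol. The 9 genes described here belong to these steps. They were taken by symbol from a table of 26485 genes: FDFT1, SQLE, LSS, CYP51A1, TM7SF2, MSMO1, NSDHL, HSD17B7 and C14orf1, the older symbol of ERG28. All 9 were present and all 9 passed the filter on low counts that left 12107 genes for testing. Polyadenylated RNA was sequenced from H9, an established human T lymphoma line labelled as cutaneous T lymphocytes. The 3 PA4 libraries came from H9 cells exposed to the compound PA4 at 1 µM for 24 h, and the 3 control libraries from H9 cells exposed to the solvent DMSO for 24 h. All cells were of the same line and grown in RPMI medium with serum. Whether replicates of a group were separate cultures is not stated in the labels, and the p-values below therefore reflect the spread between libraries alone, which may be technical.

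Library totals were 18282212 to 22875191 counts with PA4 and 19033853 to 19260434 counts in control, with 15023 to 15278 genes detected. Of 10 T cell markers, 7 exceeded 100 counts in some library, with CD3E at 2099 to 2529 counts and CCR4 at 1808 to 2280, whereas CD4 reached only 6 to 12 counts and CD2 stayed at 0 to 1. Pluripotency markers, checked because a stem cell line also bears the name H9, summed to 0 to 2 counts with PA4 and 1 to 2 counts in control over 5 genes. Summed marker counts were 15 to 36 with PA4 and 21 to 34 in control for myeloid cells, and 16 to 28 with PA4 and 12 to 20 in control for fibroblasts. They were 356 to 489 with PA4 and 353 to 422 in control for B cells, 166 to 219 with PA4 and 193 to 232 in control for natural killer cells, and 2591 to 3199 with PA4 and 2567 to 2603 in control for epithelial cells. Of 39 markers in 7 lists, 15 were abundant enough to test. None passed in edgeR, DESeq2 or limma-voom (0 calls each). EdgeR's unadjusted p was under 0.05 for 1 higher marker, of epithelial cells, and 1 lower marker, of natural killer cells. Among all tested genes edgeR called 0.231%, and 5.29% had an unadjusted p under 0.05. With 15 markers tested, these counts are therefore no result about the markers.

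Animal cells build cholesterol from acetyl-CoA by way of mevalonate, farnesyl diphosphate and squalene. Squalene synthesis is the first step that commits farnesyl diphosphate to sterols rather than to other isoprenoids. The steps that follow, of which some need oxygen, turn the open chain into a ring system. Transcription of most genes of the route is driven by the factor SREBP-2, which is released from membranes when cell sterol falls and usually acts together with NF-Y, which binds CCAAT boxes, and Sp1, which binds GC boxes.

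Most genes of the early ring steps rose with PA4, by modest amounts. Of the 9 genes, 6 rose, 0 fell and 3 were not called. The 6 were MSMO1, which rose 1.65-fold, SQLE and CYP51A1, both 1.39-fold, LSS, 1.34-fold, HSD17B7, 1.33-fold, and FDFT1, 1.31-fold. TM7SF2, NSDHL and C14orf1 had fitted folds of 1.51, 1.16 and 1.20 and were not called. The threshold for a call was an adjusted p of 0.05 in edgeR's quasi-likelihood test over all 12107 genes, which called 26 genes, or 0.215%, higher and 2 lower. Before adjustment, edgeR's p was under 0.05 for all 9 genes and for 5.29% of all tested genes. DESeq2 and limma-voom each called 6 of the 9 higher and 0 lower. Over all tested genes they called 33 and 25 higher and 2 lower each. In each of the 9 genes all 3 PA4 libraries lay above all 3 control libraries, as they did in 5.91% of all tested genes. The median log2 fold change was 0.42 over the 9 genes and -0.0040 over all tested genes.

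The counts were repeated with other libraries and settings. Over all tested genes, leaving out PA4 replicate 1 gave 18 calls, leaving out control replicate 1 gave 74, and leaving out control replicate 2 gave 17, against 28 with all libraries. Among the 9 genes, 5 to 7 were called when any 1 library was left out. With offsets for transcript GC content, 86 genes were called higher and 20 lower, and all 9 early ring genes were called higher.

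**Figure D1:**
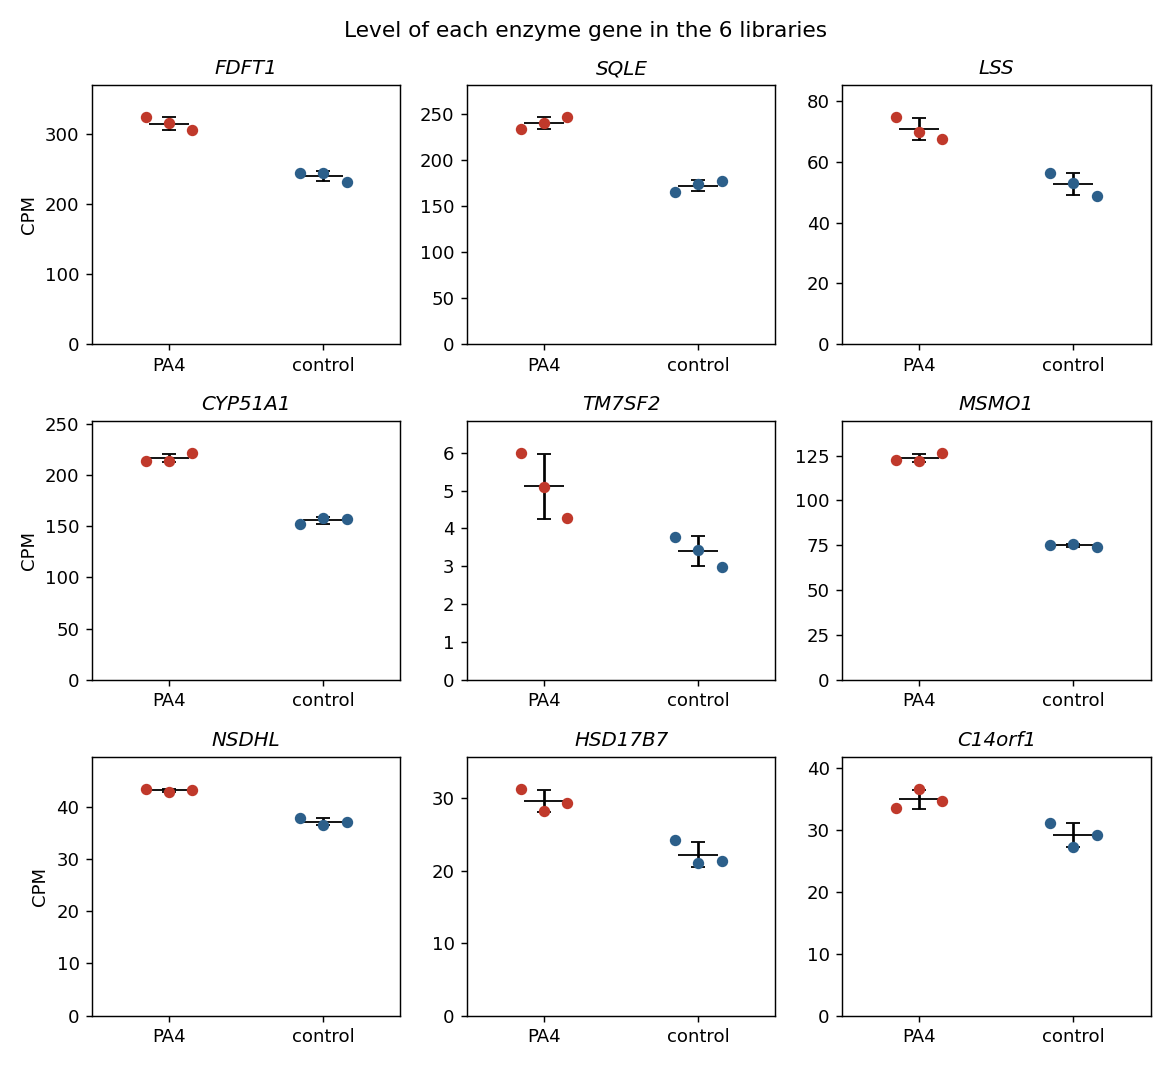
Level of each of the 9 genes in CPM (counts scaled to library size, vertical axes starting at 0) in the 3 PA4 libraries (red) and the 3 control libraries (blue), with replicates 1 to 3 from left to right. Black bars give the mean and SD, and in all 9 genes the PA4 points lie above the control points, with MSMO1 farthest apart at 121.9 to 126.4 CPM with PA4 against 74.3 to 75.9 CPM in control and TM7SF2 the most scattered.

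Together the 9 genes took 0.108%, 0.107% and 0.108% of all counts in PA4 replicates 1 to 3, against 0.0791%, 0.0794% and 0.0780% in control replicates 1 to 3. The 6 sums fell into separate groups with little spread inside each. In bulk RNA, a change in the share of cells that express a gene and a change in RNA per cell cannot be told apart.

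Promoters are shown for 4 of the genes, 3 that were called and 1 that was not. MSMO1 had the largest called rise, LSS and CYP51A1 were called, and NSDHL was not. RefSeq's GRCh38.p14 table held the promoter of 7 of the 9 genes, all but FDFT1 and SQLE, as 300 bases from 250 before to 50 after the transcription start. Each is printed 5′ to 3′ on the gene's strand, with CCAAT boxes (CCAAT or its complement ATTGG) in capitals.
MSMO1 promoter, chr4:165327419-165327718, plus strand: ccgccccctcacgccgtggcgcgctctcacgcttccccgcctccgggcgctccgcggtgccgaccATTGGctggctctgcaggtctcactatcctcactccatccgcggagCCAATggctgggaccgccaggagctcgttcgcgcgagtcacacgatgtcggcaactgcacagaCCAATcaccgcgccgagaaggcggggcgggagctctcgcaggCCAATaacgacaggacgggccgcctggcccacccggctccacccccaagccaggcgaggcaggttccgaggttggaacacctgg
LSS promoter, chr21:46228725-46229024, minus strand: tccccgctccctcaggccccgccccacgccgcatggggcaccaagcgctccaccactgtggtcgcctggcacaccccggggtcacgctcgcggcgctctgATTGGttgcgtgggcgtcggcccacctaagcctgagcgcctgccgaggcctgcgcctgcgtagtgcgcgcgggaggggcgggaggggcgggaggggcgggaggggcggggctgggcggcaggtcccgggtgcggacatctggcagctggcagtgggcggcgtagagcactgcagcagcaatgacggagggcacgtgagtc
CYP51A1 promoter, chr7:92134428-92134727, minus strand: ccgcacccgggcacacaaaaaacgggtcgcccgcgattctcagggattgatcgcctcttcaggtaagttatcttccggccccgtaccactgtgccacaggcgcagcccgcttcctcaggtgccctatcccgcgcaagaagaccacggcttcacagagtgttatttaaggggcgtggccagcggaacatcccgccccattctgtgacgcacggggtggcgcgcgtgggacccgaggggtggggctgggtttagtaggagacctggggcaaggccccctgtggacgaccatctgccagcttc
NSDHL promoter, chrX:152830813-152831112, plus strand: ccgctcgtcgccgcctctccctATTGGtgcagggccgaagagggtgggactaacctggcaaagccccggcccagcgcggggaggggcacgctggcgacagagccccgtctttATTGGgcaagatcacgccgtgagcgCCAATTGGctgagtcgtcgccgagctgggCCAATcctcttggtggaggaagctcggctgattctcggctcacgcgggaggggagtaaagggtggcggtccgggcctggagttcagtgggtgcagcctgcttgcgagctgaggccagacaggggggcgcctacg

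CCAAT, searched on both strands with overlaps counted, was present in 6 of the 7 promoters, with 16 matches in all, and in 34.6% of the 35116 promoters of this length in the table. The shares over all promoters, here and below, are not limited to genes tested here. They are also not matched for GC content, which was 60.3% to 74.7% in the 7 promoters. NSDHL held 5 matches, of which 2 overlap in the palindromic stretch beginning 113 bases before the start, and MSMO1 held 4. C14orf1 held 3, HSD17B7 2, and LSS and TM7SF2 1 each. The CYP51A1 window held none, and its gene entry reaches 326 bases farther upstream than the start used for this window. Of the 7 genes, NSDHL had the most boxes and the smallest fold, while MSMO1, with 4 boxes, had the largest fold. Whether the number of boxes goes with the fold change was not tested.

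The GC box GGGCGG, on both strands, was present in 6 of the 7 promoters and in 45.0% of all promoters. LSS held 7 matches, 5 of them in a repeated run that begins 75 bases before the start, and NSDHL held none. The sterol response element of the form TCACNCCAC, on both strands, had 0 matches in the 7 windows and was found in 1.13% of all promoters. These letters were compared only within these windows and only in these forms.

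FDFT1, squalene synthase, joins farnesyl diphosphate molecules head to head and opens the sterol branch. It lies on chromosome 8 of GRCh38 at 11795582 to 11839298. Its levels were 323.5, 315.2 and 305.2 CPM in PA4 replicates 1 to 3, against 243.6, 243.4 and 231.8 CPM in control replicates 1 to 3. The lowest PA4 library stood 1.25-fold above the highest control library. The gene rose by 0.39 ± 0.04 log2 (SE; 95% interval 0.32 to 0.47), with an edgeR adjusted p of 8.76e-06.

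SQLE, squalene epoxidase, adds the oxygen atom that later becomes the sterol hydroxyl group and is a rate-limiting enzyme of the pathway. It lies on chromosome 8 at 124998505 to 125022283. It had 233.3, 239.8 and 246.3 CPM in PA4 replicates 1 to 3, against 165.4, 174.0 and 177.2 CPM in control replicates 1 to 3. The groups did not overlap, and the lowest PA4 library stood 1.32-fold above the highest control library. The gene rose by 0.48 ± 0.04 log2 (SE; 95% interval 0.40 to 0.56), with an edgeR adjusted p of 1.54e-06.

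LSS, lanosterol synthase, folds the epoxide into the first ring-shaped sterol. It lies on chromosome 21 at 46188446 to 46228774. It had 74.7, 69.7 and 67.7 CPM in PA4 replicates 1 to 3, against 56.3, 53.1 and 48.9 CPM in control replicates 1 to 3. LSS varied more between libraries than its neighbours in the pathway, with a coefficient of variation (CV) of 5.12% with PA4 and 6.99% in control, where counting alone gives 2.63% with PA4 and 3.14% in control. It rose by 0.42 ± 0.06 log2 (SE), with an edgeR adjusted p of 0.00138. Antisense genes share 6.19% and 1.69% of its exon bases in GENCODE release 29, and how the authors' counting treated strand is not given in the sources used here.

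CYP51A1 encodes the cytochrome P450 that removes the C14 methyl group of lanosterol. It lies on chromosome 7 at 92112153 to 92134803. It had 213.9, 214.1 and 221.3 CPM in PA4 replicates 1 to 3, against 152.0, 158.3 and 156.6 CPM in control replicates 1 to 3. The spread in each group was near the counting error, with CVs of 1.94% with PA4 and 2.11% in control where counting alone gives 1.51% with PA4 and 1.83% in control. The rise was 0.48 ± 0.04 log2 (SE), with an edgeR adjusted p of 9.46e-07. GENCODE release 29 has an overlapping gene on the same strand that holds 79.4% of its exon bases, but that gene has no row in the count table. The antisense gene CYP51A1-AS1 had 0 to 1 counts with PA4 and 1 to 3 counts in control.

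The C14 demethylase leaves a double bond that is reduced by either of a pair of enzymes, TM7SF2 and LBR. TM7SF2, a sterol C14 reductase of the endoplasmic reticulum, lies on chromosome 11 at 65111872 to 65116230 and had the fewest reads of the 9 genes. It had 121, 116 and 78 counts in PA4 replicates 1 to 3, against 73, 66 and 57 counts in control replicates 1 to 3. Scaled for depth these were 5.99, 5.09 and 4.27 CPM with PA4 and 3.78, 3.43 and 2.99 CPM in control. The lowest PA4 library stood 1.13-fold above the highest control library.

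The fitted change of TM7SF2, 0.59 ± 0.15 log2 (SE), was larger than that of each of the other genes except MSMO1, but its 95% interval of 0.27 to 0.92 was also the widest. At an edgeR adjusted p of 0.260 it was not called, and at this depth counting alone gives a CV of 9.76% with PA4 and 12.4% in control. Its call appeared without the low-count filter, at an edgeR adjusted p of 0.0243, and with GC offsets, at 0.0265. TM7SF2 was called in 3 of the 13 other settings, and DESeq2's adjusted p was 0.622. LBR, the other C14 reductase and also an anchor of chromatin at the nuclear envelope, stood at 391.5 ± 6.26 TPM (a level scaled to gene length and library size) with PA4 and 383 ± 16.2 TPM in control (SD, n = 3 each). TM7SF2 stood at 8.35 ± 1.37 TPM with PA4 and 5.55 ± 0.609 TPM in control. The log2 fold change of LBR was 0.032 ± 0.032 (SE), not called, and the difference between both reductases was not tested.

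Removal of the C4 methyl groups takes MSMO1, NSDHL and HSD17B7 in turn, and their fitted changes were 0.72, 0.22 and 0.42 log2 in that order. MSMO1, the C4 methyl oxidase, lies on chromosome 4 at 165327669 to 165343164. It had 122.5, 121.9 and 126.4 CPM in PA4 replicates 1 to 3, against 75.0, 75.9 and 74.3 CPM in control replicates 1 to 3. It was the most sharply separated of the 9 genes, with the lowest PA4 library 1.61-fold above the highest control library. The rise of 0.72 ± 0.04 log2 (SE; 95% interval 0.63 to 0.81) had an edgeR adjusted p of 2.63e-08 and ranked 3 by p and 19 by size among the 12107 tested genes.

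NSDHL, the dehydrogenase that removes the oxidised C4 carbon, lies on chromosome X at 152831063 to 152869729. It had 43.4, 42.9 and 43.2 CPM in PA4 replicates 1 to 3, against 37.8, 36.4 and 37.2 CPM in control replicates 1 to 3. The groups did not overlap and the libraries of each lay close together, with CVs of 0.615% with PA4 and 1.82% in control, below the counting error of 3.37% with PA4 and 3.75% in control. The log2 fold change was 0.22 ± 0.05 (SE; 95% interval 0.10 to 0.33), with an unadjusted p of 0.000852 in edgeR and an adjusted p of 0.210, so NSDHL was not called. With GC offsets it was called, at an edgeR adjusted p of 0.0137 and a log2 fold change of 0.21. NSDHL was called in 2 of the 13 other settings, and DESeq2's adjusted p was 0.341.

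HSD17B7, the reductase that restores the hydroxyl group at the end of each C4 round, lies on chromosome 1 at 162790702 to 162812823. It had 31.3, 28.3 and 29.3 CPM in PA4 replicates 1 to 3, against 24.2, 21.1 and 21.3 CPM in control replicates 1 to 3. Replicate 1 was highest in both groups. The gene rose by 0.42 ± 0.07 log2 (SE), with an edgeR adjusted p of 0.0198. This call was lost without PA4 replicate 1, PA4 replicate 3 or control replicate 2, at edgeR adjusted p-values of 0.213, 0.0616 and 0.207.

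HSD17B7P2 is a transcribed pseudogene and near-copy of HSD17B7, and reads that match both could have been counted for either, which leaves both values uncertain. The pseudogene had 76, 97 and 76 counts in PA4 replicates 1 to 3, against 52, 47 and 45 counts in control replicates 1 to 3. Its groups did not overlap either, and its log2 fold change of 0.70 ± 0.15 (SE) was not called, at an edgeR adjusted p of 0.0942.

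C14orf1, now named ERG28, lies on chromosome 14 at 75649791 to 75660876, and its role is known from budding yeast, where the protein holds the C4 demethylation enzymes together. It had 33.5, 36.5 and 34.6 CPM in PA4 replicates 1 to 3, against 31.0, 27.2 and 29.1 CPM in control replicates 1 to 3. The lowest PA4 library exceeded the highest control library by 1.08-fold, the smallest gap among the 9 genes. The log2 fold change was 0.26 ± 0.07 (SE; 95% interval 0.12 to 0.40), not called at an edgeR adjusted p of 0.2299. The call appeared without control replicate 1, at an edgeR adjusted p of 0.0259, without the low-count filter, at 0.0416, and with GC offsets, at 0.0173. C14orf1 was called in 4 of the 13 other settings, and DESeq2's adjusted p was 0.269.

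**Figure D2:**
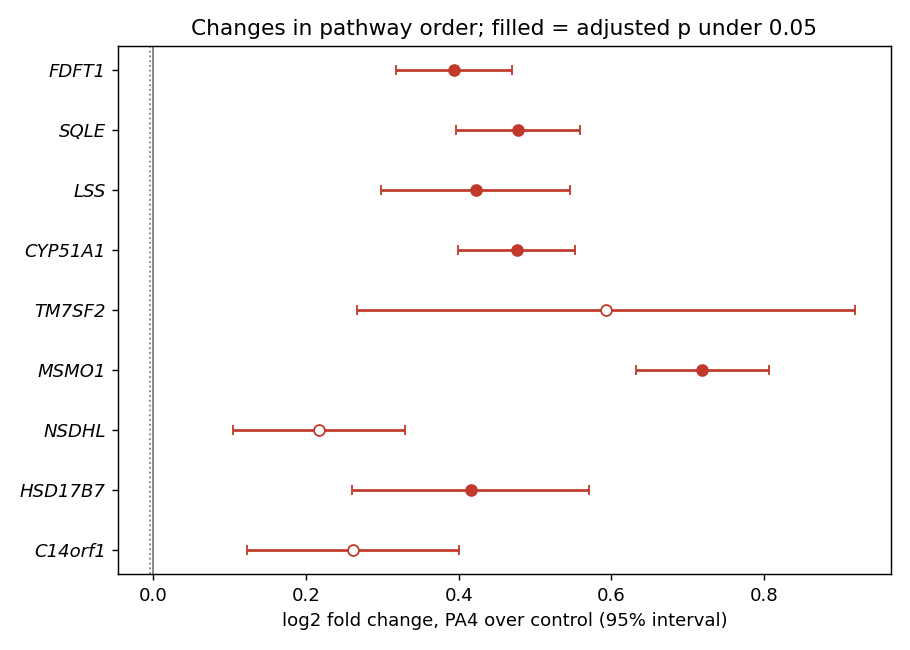
Log2 fold change of PA4 over control (horizontal axis) with 95% intervals for the 9 genes, from the first enzyme at the top to the scaffold gene at the bottom, with filled points for genes called by edgeR. The dotted line is the median of all tested genes at -0.0040. All 9 intervals lie above 0, MSMO1 has the highest point at 0.72, NSDHL the lowest at 0.22, and TM7SF2 the widest interval.

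The genes were next compared among themselves by setting each, within a library, against the mean log2 CPM of the other 8. MSMO1 stood 0.96 ± 0.06 log2 above the others with PA4 and 0.64 ± 0.05 log2 above them in control (SD, n = 3 each), a difference of 0.31. NSDHL stood at -0.75 ± 0.03 log2 with PA4 and -0.50 ± 0.04 log2 in control, a difference of -0.25. C14orf1 differed by -0.20 and FDFT1 by -0.052. For these 4 genes the groups did not overlap, and the two-sided exact permutation p was 0.1, the smallest that 3 libraries against 3 allow, or 0.225 adjusted over the 9 genes. For the other 5 genes, p was 0.4 to 0.9. Each gene is set against the other 8, so the 9 differences are linked. A larger rise in any gene lowers the values of the rest, so a negative value is only relative.

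Levels of different genes were compared per length, as TPM over the gene lengths in the count table. The order was the same in both groups. SQLE led at 209.8 ± 6.48 TPM with PA4 and 150.7 ± 6.21 TPM in control (SD, n = 3 each). FDFT1 followed at 187.5 ± 4.73 TPM with PA4 and 142.8 ± 3.01 TPM in control, and CYP51A1 at 172.2 ± 3.96 TPM with PA4 and 123.8 ± 3.01 TPM in control.

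MSMO1 came next at 145.1 ± 3.31 TPM with PA4 and 88.1 ± 0.604 TPM in control. NSDHL was at 69.3 TPM with PA4 and 59.6 TPM in control, and C14orf1 at 59.2 TPM with PA4 and 49.5 TPM in control. HSD17B7 was at 44.3 TPM with PA4 and 33.2 TPM in control, LSS at 21.1 TPM with PA4 and 15.7 TPM in control, and TM7SF2 was lowest. Neighbours in this order did not overlap in any library, except SQLE and FDFT1 in control, where SQLE had 144.1 to 156.4 TPM and FDFT1 139.4 to 144.6 TPM. The order depends on the deposited lengths, which were 8773 bases for LSS and 1630 for NSDHL. Without scaling to length, LSS stood above NSDHL, at 70.7 against 43.2 CPM with PA4 and 52.8 against 37.1 CPM in control. MSMO1 made up 15.8 ± 0.247% of the summed TPM of the 9 genes with PA4 and 13.2 ± 0.109% in control, while NSDHL made up 7.56 ± 0.039% with PA4 and 8.91 ± 0.161% in control.

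Differences between libraries of 1 group were set against the GC content of the genes' longest transcripts in GENCODE release 29. Only replicates 1 and 3 of each group were compared in this way. Within each group this pair had the highest chi-square per degree of freedom, 6.81 in control and 2.11 with PA4, where the next pair had 2.09. TM7SF2, at 64.2% GC, was 1.40-fold higher in PA4 replicate 1 than in PA4 replicate 3 and 1.26-fold higher in control replicate 1 than in control replicate 3. LSS, at 58.3% GC, gave a ratio of 1.10 for the PA4 pair and 1.15 for the control pair. SQLE, at 46.5% GC, gave 0.947 for the PA4 pair and 0.933 for the control pair, and CYP51A1, at 41.5% GC, gave 0.967 and 0.970 for the PA4 and control pairs.

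Over the 9 genes, Spearman's rho between GC content and this ratio was 0.6 with PA4 and 0.683 in control, given as a description, since the genes come from the same libraries. HSD17B7, at 41.7% GC with a ratio of 1.07 for the PA4 pair and 1.13 for the control pair, stood off this order. So did MSMO1, with the lowest GC content, 38.1%, and ratios of 0.970 for the PA4 pair and 1.01 for the control pair. Fitted with GC offsets, the log2 fold changes were 0.72 for MSMO1, 0.43 for LSS and 0.62 for TM7SF2, against 0.72, 0.42 and 0.59 without them.

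**Figure D3:**
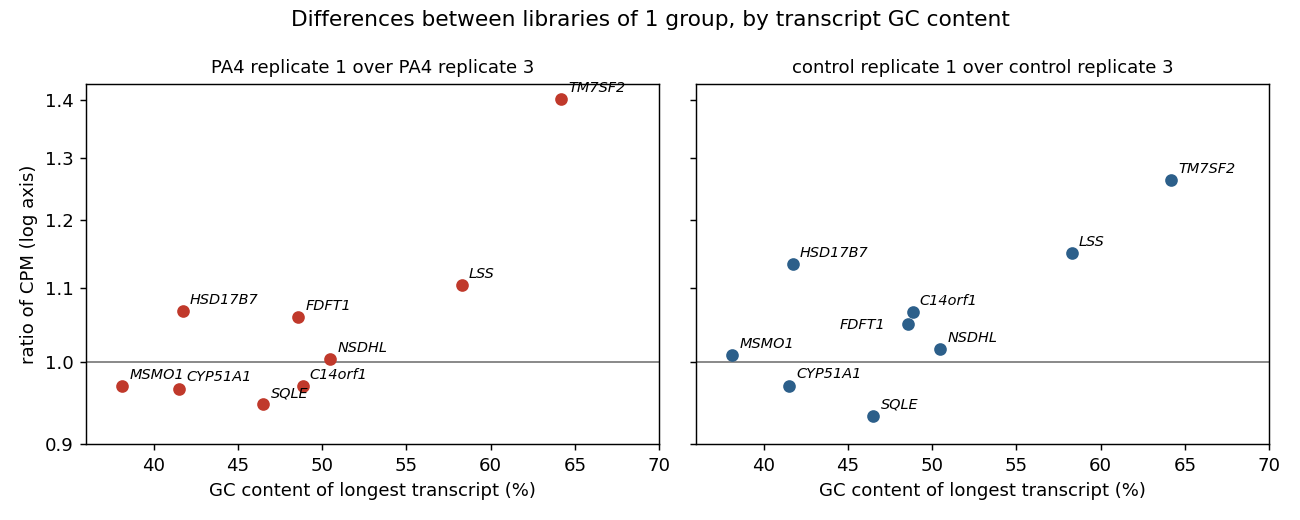
Ratio of CPM between replicates 1 and 3 of the PA4 group (left) and of the control group (right) on a log axis, against the GC content in percent of each gene's longest transcript. Points are the 9 genes. TM7SF2 and LSS, at 64.2% and 58.3% GC, lie above 1 in both panels, and SQLE and CYP51A1 lie below 1.

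The neighbouring stretches of the pathway were set beside the early ring steps. Of 8 mevalonate enzymes, which lead from acetyl-CoA to farnesyl diphosphate, 6 rose, 0 fell and 2 were not called, with a median log2 fold change of 0.49. For this and the next list, the share that edgeR called higher over all tested genes was 0.215%. By edgeR's unadjusted p under 0.05, which 5.29% of all tested genes met in either direction, 7 were higher. DESeq2 and limma-voom each called 6. The largest was HMGCS1, which makes HMG-CoA, at 0.96 ± 0.04 log2 (SE), a larger fitted value than that of MSMO1. Of 5 genes of the late sterol steps, which move and reduce the remaining double bonds, 2 rose, 0 fell and 3 were not called, with a median of 0.32. By edgeR's unadjusted p under 0.05, 4 were higher, DESeq2 called 3 and limma-voom 2. One of the genes not called is LBR, which was listed here although it shares the C14 reduction with TM7SF2. DHCR7, the last reductase of one branch, led these at 0.41 ± 0.06 log2 (SE). Whether the 3 groups of genes differed was not tested.

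Genes of proteins that serve the early ring enzymes without being part of the route were also listed. Over all tested genes 0.231% were called in either direction and 5.29% had an unadjusted p under 0.05 in edgeR, so in lists of this size counts of 0 are near the background and are no result about the lists. Of 6 redox partner genes, among which POR passes electrons to CYP51A1 and SQLE and the cytochrome b5 genes to MSMO1, 0 were called, 0 had an unadjusted p under 0.05 in edgeR, and DESeq2 and limma-voom also called 0. Their median log2 fold change was 0.017. Of 5 genes of enzyme turnover, among them MARCH6, the ubiquitin ligase that marks SQLE protein for destruction, 0 were called by the same 3 tools and 0 had an unadjusted p under 0.05, with a median of 0.040.

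Of 8 genes that use farnesyl diphosphate for prenyl groups, dolichol or coenzyme Q instead of squalene, 0 were called by these tools and 0 had an unadjusted p under 0.05, with a median of 0.016. These counts are again near the shares over all tested genes, 0.231% and 5.29% in edgeR, and are no result about the list. Among 7 genes of the SREBP machinery, INSIG1, which holds SREBP back in the endoplasmic reticulum and is itself a target of it, rose by 0.72 ± 0.04 log2 (SE), and the other 6 were not called. DESeq2 and limma-voom each called 1 as well, and edgeR's unadjusted p was under 0.05 for 2 genes, INSIG1 and SREBF2. SREBF2, the gene of SREBP-2 and named after its values were seen, had 144.9 ± 2.03 CPM with PA4 and 130.03 ± 4.67 CPM in control (SD, n = 3 each). Its groups did not overlap, with PA4 above, as in 5.91% of all tested genes. Its log2 fold change was 0.16 ± 0.04 (SE), with an edgeR adjusted p of 0.247. The median of these 7 genes was 0.0031.

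**Figure D4:**
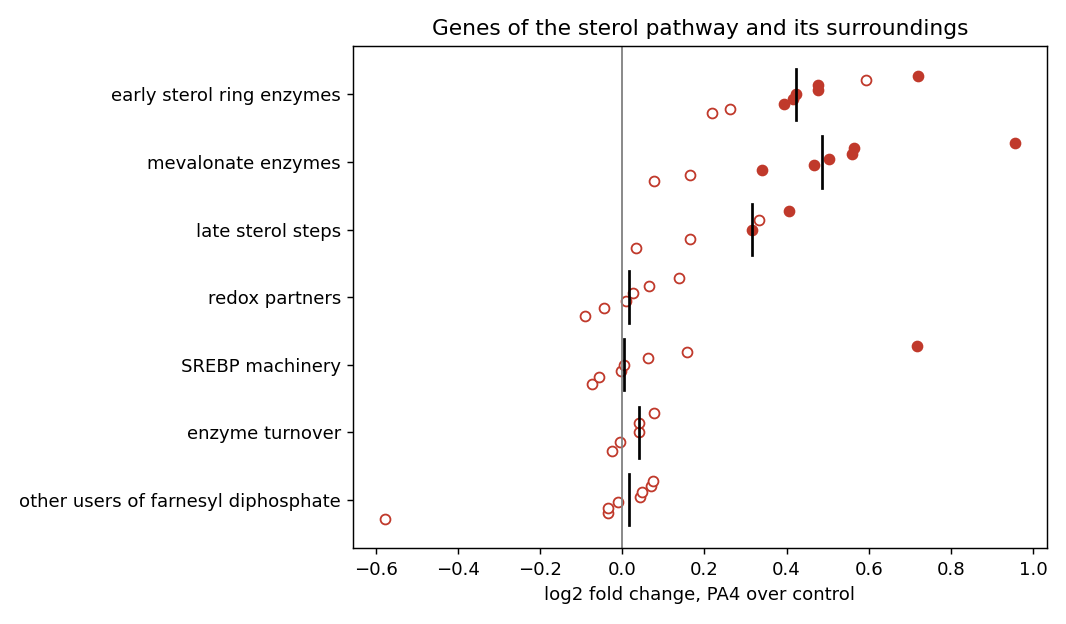
Log2 fold change of PA4 over control (horizontal axis) for every gene of the early ring steps and of 6 other lists (rows), with filled points for genes called by edgeR and black bars at each list's median. Filled points lie in the early ring, mevalonate and late sterol rows, plus INSIG1 in the SREBP row, and the medians of the 3 sterol rows are 0.42, 0.49 and 0.32.

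Genes whose levels over the 6 libraries were most like those of the called early ring genes were found among 8556 other genes that averaged at least 10 CPM, by Pearson's r of log2 CPM with the mean centred profile of the 6 called genes. With 3 libraries a group, this r follows the difference between groups, and it is given as a description over 6 libraries. The first 10 included FADS1 (r = 0.999), SCD (0.998), LONRF1, INSIG1, HMGCS1, GLUL, TSC22D3 and ACAT2 (0.984). Of the genes named here, LONRF1 and GLUL were not called, and the others were called higher.

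FADS1, a fatty acid desaturase, had 324.7 ± 2.62 CPM with PA4 and 243.3 ± 2.72 CPM in control (SD, n = 3 each), and SCD, the stearoyl-CoA desaturase, rose 1.26-fold. LONRF1 had 31.2 ± 0.242 CPM with PA4 and 26.7 ± 0.451 CPM in control, a log2 fold change of 0.22 with an edgeR adjusted p of 0.309. GLUL, glutamine synthetase, had a log2 fold change of 0.10 with an edgeR adjusted p of 0.562. Among the early ring genes themselves, r with that profile was 0.991 for NSDHL, which was not in it, and 0.890 for both C14orf1 and TM7SF2.

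The fold changes of the 9 genes were computed again under 13 other settings of tool, scaling, filter, replicate block, GC offsets and libraries left out. FDFT1, SQLE, LSS, CYP51A1 and MSMO1 were called in all 13. The log2 fold change of MSMO1 ranged from 0.70 to 0.73 and that of NSDHL from 0.20 to 0.23, and the range of NSDHL met only that of C14orf1, which began at 0.22. The range of MSMO1 met none of the others. TM7SF2 had the widest range, 0.47 to 0.70.

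**Figure D5:**
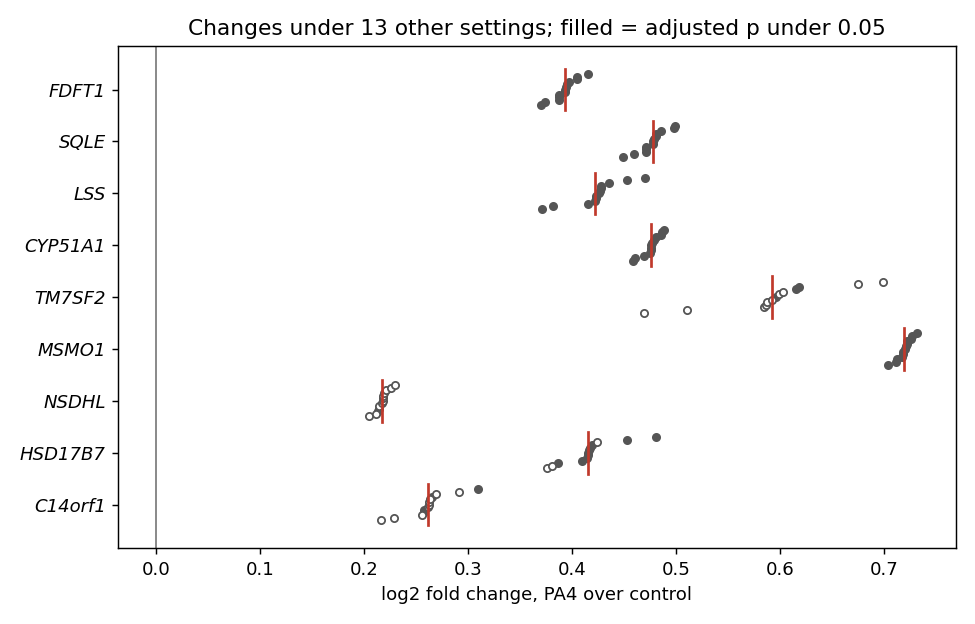
Log2 fold change of PA4 over control (horizontal axis) of the 9 genes under 13 other settings (grey points, filled where called at an adjusted p under 0.05), with the reported value as a red bar. All points lie above 0. MSMO1, at 0.70 to 0.73, lies to the right of the others, with the upper end of TM7SF2 next to it, and MSMO1, CYP51A1, SQLE, LSS and FDFT1 have all points filled.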

How the data were processed

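RNA-seq libraries of H9 cells, 3 with PA4 and 3 with vehicle, were analysed from the count table deposited by the authors, which holds raw counts per gene symbol and a gene length in bases. Per the submitters' processing notes, reads were trimmed with Trimmomatic 0.39 and fastp 0.23.2, aligned with STAR 2.7.9a to hg38 and counted with featureCounts of Subread 1.6.4. For the annotation, the strand setting and multiply aligned reads, the choice is not given in the sources used. Every column belonged to a library of the study.

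Counts were tested in R 4.3.3 with edgeR 4.0.16 (filterByExpr defaults, TMM, estimateDisp, glmQLFit, glmQLFTest, two-sided, no covariate). Benjamini-Hochberg adjustment ran over the 12107 tested genes, which held at least 99.9% of each library's counts. CPM are counts scaled to TMM-adjusted library size, and TPM were computed from the counts and the deposited lengths. Standard errors and 95% intervals come from the F statistic. Log2 CPM used a prior count of 2. Library totals were 18282212 to 22875191 counts, and the common biological CV was 3.92%. No pair looked like copies of 1 library: chi-square divided by its degrees of freedom was at least 1.48. The largest value, 6.81, was between control replicates 1 and 3. Pairs of a PA4 and a control library had 2.50 to 5.29. Intervals of counting error cover counting only. The fit was tested on simulated data with known changes.

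Alternatives were DESeq2 1.42.0, limma-voom (limma 3.58.1), library size alone, no low-count filter, the replicate number as a block, GC offsets (lowess of span 0.3 on the GC content of the longest GENCODE release 29 transcript, known for 97.6% of tested genes), both together, and leaving out each library. Coordinates and promoters were taken from RefSeq tables of GRCh38.p14, the build called hg38. The 9 genes, the other lists, the tests and the alternatives were chosen with earlier results of these data known, and the motifs after the promoters were in hand. The text names the 9 genes whatever their values, the called gene with the largest change of each other list, LBR, and genes among the 10 most like the called ones in pattern. The results of some single genes are left out of the text. HSD17B7P2, CYP51A1-AS1 and the list members named for their role, except SREBF2, were named for what they are, not for their values. SREBF2 was named after its values were seen.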

Additional observations from a re-analysis of the deposited data

How the results depend on the processing

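Of 117 values of the 9 genes under other settings, 0 changed direction, 105 kept their side of the threshold, 3 lost it and 9 gained it. The count over all genes, 28 in the reported fit, was 62 with no low-count filter, 59 with the replicate block, 106 with GC offsets and 114 with GC offsets and the block together. It was 35 with DESeq2, 27 with limma-voom and 26 with library size alone, and 17 to 74 when 1 library was left out. The count of early ring genes, 6 in the reported fit, was 6 with the replicate block, 8 without the filter, 9 with GC offsets with or without the block, and 5 to 7 when 1 library was left out. The replicate numbers are not shown to pair the libraries: libraries of the same number had deviations from their group means that correlated at 0.025, -0.0084 and 0.13, and 1 of 3 numbers had libraries that correlated best with each other. The block changed no call among the 9 genes. The median log2 fold change of all genes lay between -0.010 and 0.0013 in every setting. Depth limits TM7SF2 most, at 57 to 121 counts a library. The causes of these shifts were not tested.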
